A study of Homo sapiens with 5 samples.

Results

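Immediate early genes are switched on within minutes of a growth factor, antigen receptor or stress signal, and the MAP kinase feedback genes that rise with them shut the same signal off again. The 10 genes named for this set were the AP-1 genes FOS, FOSB, JUN and JUNB, the zinc finger genes EGR1, EGR2 and EGR3, the induced gene IER2 and the MAP kinase phosphatase genes DUSP1 and DUSP6. They were taken by name. A probe set with exactly 1 gene symbol was found for 9 of the 10, out of 18417 genes on the array with such a probe set, and EGR2 was not matched and is not analysed here. Each of the 9 had 1 probe set. Their RNA was measured in 5 stable clones of Nalm6, a human leukaemia line of B-cell precursors, with 1 whole-transcript array a clone. The clones were 3 that expressed a short hairpin RNA (shRNA) against MondoA and, as controls, 2 that expressed a nonsense shRNA, all grown with 20% fetal bovine serum and 200 mg/dl glucose. Clones, not repeat cultures of 1 clone, are the replicates, so the spread within a group holds the differences between clones.

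In a resting cell the RNA of these genes is low and short-lived. A signal that runs through RAS, RAF, MEK and ERK phosphorylates ternary complex factors of the ELK family, which sit with the serum response factor SRF on CArG boxes of promoters such as that of EGR1, and CREB acts on cyclic AMP response elements (CRE) of the same genes. FOS and JUN proteins pair to form the transcription factor AP-1, EGR proteins bind GC-rich promoter sites, DUSP1 dephosphorylates p38, JNK and ERK in the nucleus, and DUSP6 dephosphorylates ERK in the cytoplasm. In precursor B cells the pre-B-cell receptor and the interleukin 7 receptor feed this cascade. MondoA, the protein of the MLXIP gene, pairs with MLX and binds E-boxes.

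The upstream sequences show which of these elements lie near the start sites of the 4 genes whose groups did not overlap, EGR1, IER2, FOS and JUN, and of DUSP1, the 1 gene of the set with an E-box there. Each is the 250 bases before the RefSeq start site on GRCh38.p14, 5′ to 3′ on the strand of the gene. Capitals mark every match to the motifs searched on both strands, which were the CArG box, the CRE TGACGTCA, its half-site TGACG, the AP-1 site TGAGTCA, the EGR site GCGTGGGCG, the E-box CACGTG and the TATA box TATAAA.
EGR1 (chr5:138465229-138465478, plus strand): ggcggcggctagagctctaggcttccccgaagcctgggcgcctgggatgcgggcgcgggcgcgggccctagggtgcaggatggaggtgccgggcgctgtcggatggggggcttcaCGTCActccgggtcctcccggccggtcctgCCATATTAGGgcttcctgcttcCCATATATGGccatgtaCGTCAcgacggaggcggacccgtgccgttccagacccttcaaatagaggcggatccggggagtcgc
IER2 (chr19:13150161-13150410, plus strand): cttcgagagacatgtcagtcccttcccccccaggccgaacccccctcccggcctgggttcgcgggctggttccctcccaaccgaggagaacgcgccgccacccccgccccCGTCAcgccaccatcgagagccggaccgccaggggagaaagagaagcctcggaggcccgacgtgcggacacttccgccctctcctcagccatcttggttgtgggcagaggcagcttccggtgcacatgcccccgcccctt
FOS (chr14:75278578-75278827, plus strand): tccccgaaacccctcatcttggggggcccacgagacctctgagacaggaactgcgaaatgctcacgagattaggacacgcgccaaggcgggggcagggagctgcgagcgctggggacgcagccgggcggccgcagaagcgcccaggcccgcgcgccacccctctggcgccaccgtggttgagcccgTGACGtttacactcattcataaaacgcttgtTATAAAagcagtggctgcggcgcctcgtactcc
JUN (chr1:58784048-58784297, minus strand): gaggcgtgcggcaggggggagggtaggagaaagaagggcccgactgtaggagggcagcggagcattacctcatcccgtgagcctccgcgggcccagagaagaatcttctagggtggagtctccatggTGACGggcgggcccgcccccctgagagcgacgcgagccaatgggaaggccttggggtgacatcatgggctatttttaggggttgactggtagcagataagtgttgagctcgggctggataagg
DUSP1 (chr5:172771196-172771445, minus strand): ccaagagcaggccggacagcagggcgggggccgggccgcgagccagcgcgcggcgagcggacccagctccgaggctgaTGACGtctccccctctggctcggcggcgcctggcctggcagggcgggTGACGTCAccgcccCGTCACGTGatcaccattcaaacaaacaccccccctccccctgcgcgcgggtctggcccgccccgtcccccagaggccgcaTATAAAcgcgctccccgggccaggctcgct

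EGR1 held 2 CArG boxes, from base -105 to base -96 and from base -83 to base -74 before its start, and none was found in the other windows (8 of the 9 genes had one, all but EGR3). A CArG box was found in 1.16% of all 35116 windows of the same length. The half-site TGACG, which is also contained in the full CRE, lay in the windows of 7 of the 8 genes, all but DUSP6, against 21.22% of all windows. Those 7 windows held 62.0 to 74.4% G or C, against 57.2% for DUSP6 and a median of 58.0% over all windows. The share over all windows was not matched for this. That full CRE was found in DUSP1 alone, from base -125 to base -118, against 1.65% of all windows. DUSP1 also held the only E-box, from base -108 to base -103, which overlaps a half-site by 2 bases and occurs in 6.34% of all windows. A TATA box was found in FOS, FOSB, JUNB and DUSP1, against 10.72% of all windows. The AP-1 site (4.2% of all windows) and the EGR site (0.72%) had no match in the 8. These are matches of letters in short windows, and elements further upstream lie outside them.

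All values that follow are RMA expression on the log2 scale, in which the arrays were made comparable by the authors and the probes of a probe set were combined into 1 value. Differences are MondoA shRNA minus control shRNA, errors are SD over n = 3 MondoA shRNA and n = 2 control arrays unless another is named, and folds are 2 to the power of the difference. The targeted gene came first. MLXIP read 6.42, 6.47 and 6.29 in MondoA shRNA arrays 1, 2 and 3, against 6.42 and 6.42 in control arrays 1 and 2, a difference of -0.03 ± 0.06 (SE). The 95% interval from limma took in folds from 0.862 to 1.12, though MondoA shRNA array 1 and both control arrays shared a value. MLXIP RNA at this probe set was thus not found lower and did not bear out the label. Whether MondoA protein was lower was not tested. Every direction below refers to the arrays labelled MondoA shRNA. Of the B-precursor markers, 8 of 10 were measured and read between 7.35 and 10.57, while the markers of other cells, 6 of 6 for T cells, 5 of 6 for myeloid cells and 6 of 6 for fibroblasts, read between 2.12 and 3.88 apart from the collagen gene COL1A1 at 4.79. The 8 B-precursor markers had 6 differences above 0 and 2 below, with a median of 0.06. The 2 furthest from 0, chosen after their values were seen, were the terminal transferase gene DNTT and CD79A, a signalling chain of the B-cell receptor. DNTT differed by -1.19 and CD79A by 0.91 (limma adjusted p = 0.833 for each). The part of these in the results below was not tested. In RNA from whole cultures, fewer cells that express a gene and less RNA per cell cannot be told apart.

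The immediate early and feedback genes differed little between the groups. The 9 differences ran from -0.29 to 0.03, 6 below 0, 2 above and 1 at exactly 0, with a median of -0.06, where the median over all 18417 genes was 0.00. The median size of the difference, whatever its sign, was 0.06 in the set and 0.05 over all genes. At the adjusted threshold of 0.05 limma called 0 of the 9, and 0% of all genes. Before adjustment, limma gave a p under 0.05 to 1 of 9 on the lower side, IER2, against 2.18% of all genes, and to 0 of 9 on the higher side, against 1.55%. The MondoA shRNA arrays lay wholly below both control arrays for 4 of 9 genes, FOS, JUN, EGR1 and IER2, against 5.18% of all genes. They lay wholly above for 0 of 9, against 4.85%. RMA gave 54.1% of all genes the same value, to within 0.0001, in at least 3 arrays. Among the 4287 genes with 5 different values, 16.6% lay wholly below, and of the 4 genes of the set with 5 different values (JUN, EGR1, IER2 and DUSP1) 3 did.

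**Figure D1:**
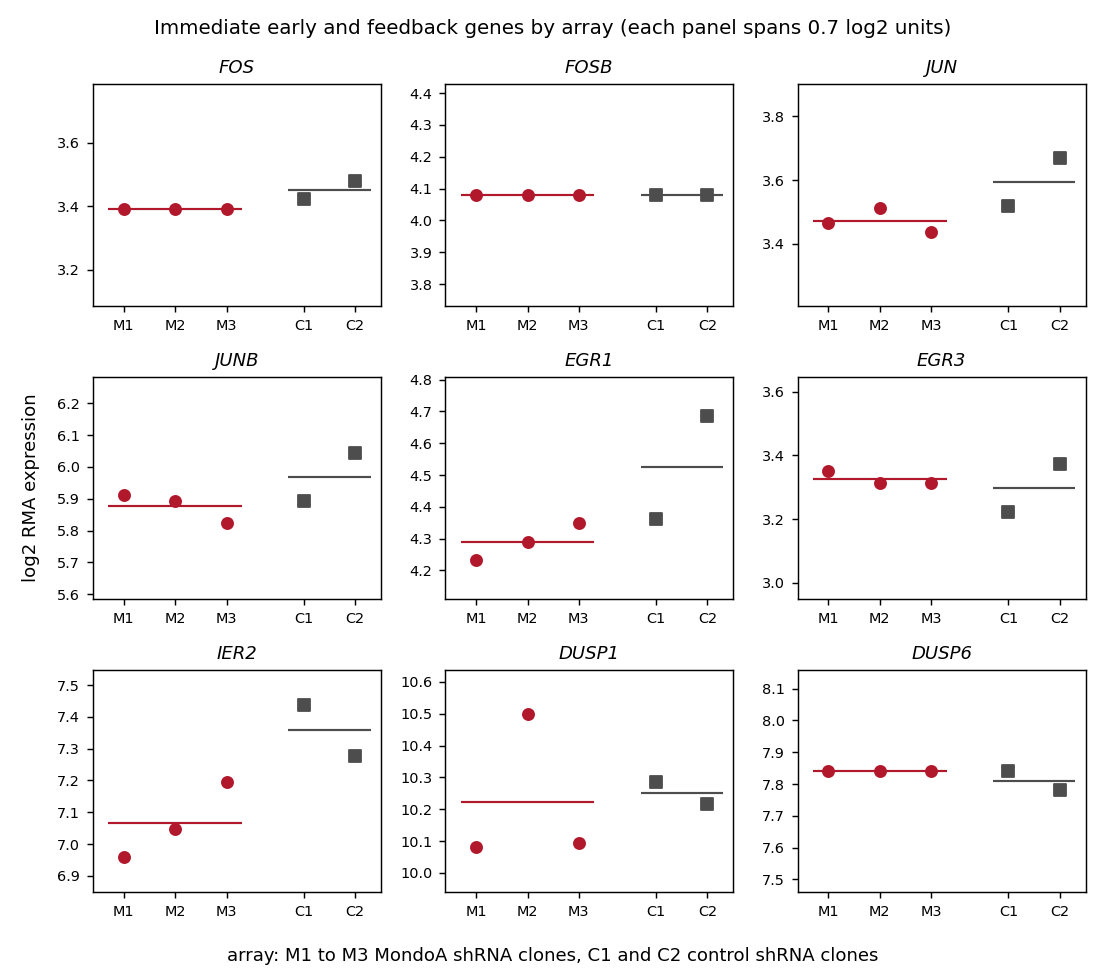
RMA expression (log2 units, vertical axis) of the 9 measured genes in MondoA shRNA arrays 1 to 3 (red circles) and control arrays 1 and 2 (grey squares), with lines at the group means and every panel spanning 0.7 log2 units. FOS, JUN, EGR1 and IER2 have every red point below both grey ones, FOSB is flat, and DUSP1 has 1 red point above and 2 below the controls.

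Of the AP-1 genes, FOS encodes the classic partner of JUN. It read 3.39 in all 3 MondoA shRNA arrays, against 3.42 and 3.48 in control arrays 1 and 2. The groups did not overlap, but the whole spread over the 5 arrays was 0.09. The difference was -0.06 (95% interval -0.12 to 0.00, limma adjusted p = 0.833), a fold of 0.960. It was -0.03 without control array 2. Without control array 1 it was -0.09 and passed the threshold (limma adjusted p = 0.0273), a fit in which 752 genes in all passed and the 3 equal MondoA shRNA values carry the estimate of spread.

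FOSB, a relative of FOS, read 4.08 in each of the 5 arrays. The values were identical to within 0.0001, so the difference was 0.00, and its narrow interval (-0.02 to 0.02) comes from that tie and does not measure how well the RNA was determined.

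JUN, the strongest activator of its family, read 3.47, 3.51 and 3.44 in MondoA shRNA arrays 1, 2 and 3, against 3.52 and 3.67 in control arrays 1 and 2. MondoA shRNA array 2 and control array 1 nearly met, and the distance between the groups rested on control array 2. The difference was -0.12 (95% interval -0.29 to 0.05, limma adjusted p = 0.833), and -0.05 without control array 2.

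JUNB, which forms AP-1 dimers of weaker activity than JUN, read 5.91, 5.89 and 5.82 in MondoA shRNA arrays, against 5.89 and 6.04 in control arrays. The groups overlapped at control array 1, whose value equalled that of MondoA shRNA array 2. The difference was -0.09 (95% interval -0.27 to 0.08, limma adjusted p = 0.833), and -0.02 without control array 2.

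Of the EGR genes, EGR1 is the most used marker of ERK activity among early genes. It read 4.23, 4.29 and 4.35 in MondoA shRNA arrays 1, 2 and 3, against 4.36 and 4.69 in control arrays 1 and 2. All 3 MondoA shRNA values were lower, the nearest by 0.01, and the 2 controls lay further from each other than the MondoA shRNA arrays did. The group means were 4.29 ± 0.06 in MondoA shRNA arrays and 4.52 ± 0.23 in control arrays. The difference of -0.23 (95% interval -0.58 to 0.11, limma adjusted p = 0.833) corresponds to a fold of 0.850 and was -0.07 without control array 2 and -0.40 without control array 1.

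EGR3, which in lymphocytes follows antigen receptor signals, read 3.35, 3.31 and 3.31 in MondoA shRNA arrays, against 3.22 and 3.37 in control arrays. The controls enclosed all MondoA shRNA values. The difference was 0.03 (95% interval -0.13 to 0.19, limma adjusted p = 0.916), and its sign followed the control array used, with 0.105 without control array 2 and -0.048 without control array 1.

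IER2, a nuclear protein gene induced with FOS, showed the largest difference of the set. It read 6.96, 7.05 and 7.19 in MondoA shRNA arrays 1, 2 and 3, against 7.44 and 7.28 in control arrays 1 and 2. All 3 MondoA shRNA values were below both controls, and here the higher control was array 1, not array 2. The means were 7.07 ± 0.12 in MondoA shRNA arrays and 7.36 ± 0.11 in control arrays, a difference of -0.29 ± 0.10 (SE; 95% interval -0.58 to -0.005; limma adjusted p = 0.833). That is a fold of 0.817. With 1 array left out it ran from -0.37 to -0.21, and its unadjusted p in limma, 0.0478 with all arrays, was 0.110 without MondoA shRNA array 1 and stayed under 0.05 in 1 of the 5 fits that left out an array (0.0328 without MondoA shRNA array 3).

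DUSP1, the nuclear phosphatase gene, read 10.08, 10.50 and 10.09 in MondoA shRNA arrays 1, 2 and 3, against 10.29 and 10.22 in control arrays 1 and 2. MondoA shRNA array 2 was the highest of the 5 and the other 2 were the lowest. The mean was 10.22 ± 0.24 in MondoA shRNA arrays and 10.25 ± 0.05 in control arrays, a difference of -0.03 (95% interval -0.51 to 0.45, limma adjusted p = 1). Without MondoA shRNA array 2 the difference was -0.16. The interval takes in folds from 0.703 to 1.37, so a change of that size would not have been resolved.

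DUSP6, the cytoplasmic ERK phosphatase gene, whose RNA is often read as a gauge of steady ERK signalling, stood at 7.84 in all 3 MondoA shRNA arrays, against 7.84 and 7.78 in control arrays. Only control array 2 left the common value. The difference was 0.03 (95% interval -0.03 to 0.09, limma adjusted p = 0.833), and without control array 1 it was 0.06 and passed the threshold (limma adjusted p = 0.0434), again with 3 equal MondoA shRNA values.

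**Figure D2:**
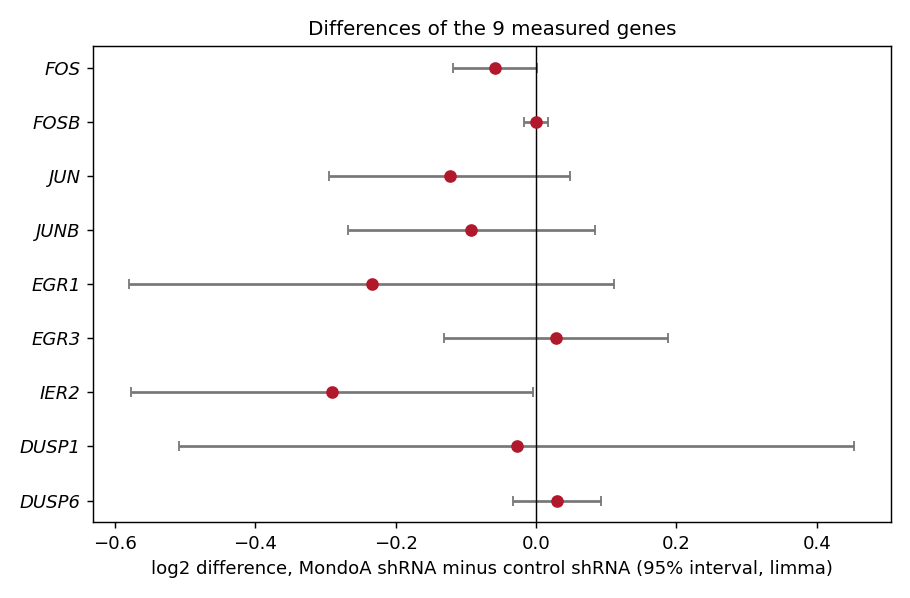
Difference of each measured gene (points, log2 units, MondoA shRNA minus control shRNA) with its 95% interval from limma (bars). The interval takes in 0 for each gene but IER2, whose upper end is -0.005. FOSB and DUSP6 have narrow bars that come from tied values, and FOS, with 3 equal MondoA shRNA values, has a bar about as narrow as that of DUSP6.

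The array that stood out within the set was control array 2. It held the single highest value of 5 of the 9 genes (FOS, JUN, JUNB, EGR1 and EGR3), while 12.5% of all genes had their single highest value there. The lowest value lay in MondoA shRNA array 1 for 3 of the 9 (EGR1, IER2 and DUSP1), against 22.2% of all genes. Set against each gene's own 5-array mean, the median of the 9 genes was -0.02, -0.01 and -0.02 in MondoA shRNA arrays 1, 2 and 3, against 0.00 and 0.06 in control arrays 1 and 2. The same median over all genes was 0.00 in each array. Heat shock genes, which rise with handling stress as early genes can, had 6 of 8 members measured and a median difference of 0.09, with 5 above 0 and 0 at an unadjusted p under 0.05. The genes with a value were BAG3, DNAJB1, HSP90AA1, HSPA8, HSPB1 and HSPH1. HSPA1A and HSPA1B were not among them, so these values do not cover all heat shock genes. HSPH1, a chaperone of the HSP110 family, differed by 0.15 and the co-chaperone gene DNAJB1 by 0.12. In control arrays 1 and 2 DNAJB1 read 8.19 and 8.04. How the clones were handled before lysis was not tested.

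FOS, FOSB, JUN and EGR3 read between 3.22 and 4.08, and EGR1 between 4.23 and 4.69. Markers of T cells, myeloid cells and fibroblasts, which a B-precursor line is not known to use, read up to 3.88, and COL1A1 up to 4.79. FOS, JUN and EGR3 lay in the first of these ranges in every array and FOSB and EGR1 between its end and COL1A1. Whether the RNA of these 5 genes was present was not assessed, and for a gene at background a small difference says little about its RNA. IER2, JUNB, DUSP1 and DUSP6 read above all of those markers in every array.

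By the rule for likeness, the gene of the set with the widest range over the arrays, IER2 (0.48), was compared with all genes outside the set. Each was first centred on its own mean. The 5 nearest, by root mean square difference over the 5 arrays, were RBM12B (0.02), PRKAR1A, TSPAN13, TMX4 and PEX39 (0.04 each). RBM12B encodes an RNA-binding protein, PRKAR1A a regulatory subunit of protein kinase A, TSPAN13 a tetraspanin and TMX4 a thioredoxin-like membrane protein. Their differences ran from -0.35 to -0.23. No immediate early gene from outside the set was among them, but 5 genes out of 18417 cannot show whether IER2 varies with other early genes.

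Around the set, 7 lists of the same signalling system held 103 genes, of which 90 were measured. None passed the adjusted threshold in limma. At an unadjusted p under 0.05 stood 3 on the lower side (KLF6, ATF3 and SPRY2) and 1 on the higher side (ELK3), beside 2.18% and 1.55% of all genes. KLF6 and ELK3 kept a limma p under 0.05 in each of the 5 fits that left out an array, SPRY2 in 2 and ATF3 in 1. Without either control array, 11 of the 90 (12.2%) had such a p, near the 10.8% and 9.36% of all genes in the fits without control arrays 1 and 2, and in each fit 2 of the 11, KLF6 and ELK3, were among the 4. The medians of the lists lay between -0.02 and 0.09.

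**Figure D3:**
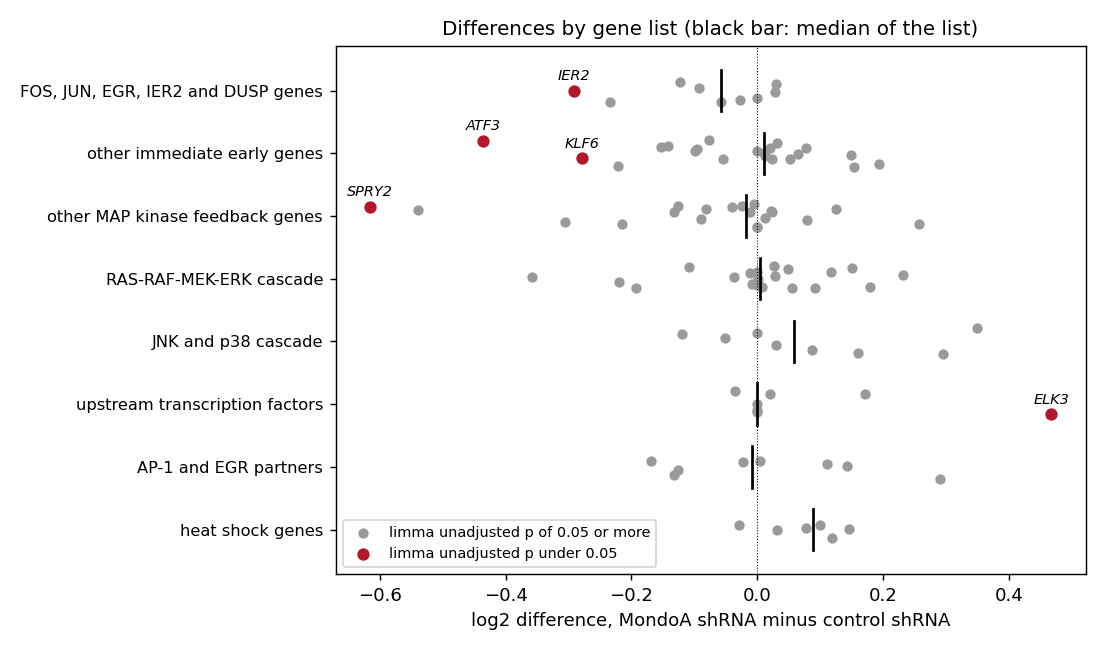
Difference of each measured gene (log2 units, MondoA shRNA minus control shRNA, horizontal axis) by list, with red points for a limma unadjusted p under 0.05 and a black bar at the median of the list. The medians lie between -0.06 and 0.09 and the red points are IER2, ATF3, KLF6, SPRY2 and ELK3.

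Other immediate early genes (21 of 22 measured) had 11 differences above 0 and 9 below, with a median of 0.01. KLF6, a zinc finger factor of serum-stimulated cells, read 5.16, 5.10 and 5.14 in MondoA shRNA arrays, against 5.36 and 5.46 in control arrays. Its groups were well apart for their spread, with a difference of -0.28 ± 0.04 (SE; limma unadjusted p = 0.00291; adjusted p = 0.705). ATF3, a stress-induced relative of FOS and JUN, read 3.58, 3.58 and 3.27 in MondoA shRNA arrays, against 3.96 and 3.86 in control arrays. The MondoA shRNA values lay in the range of the markers of other cells and the control values around its upper end, and the difference was -0.44 ± 0.13 (SE; limma unadjusted p = 0.0346; adjusted p = 0.833). Of genes outside the naming rule, chosen after their values were seen, JUND differed by 0.01, NR4A1 by -0.10 and MYC by 0.02. MYC, like DUSP1, was highest in MondoA shRNA array 2, the array that held the single highest value of 23.6% of all genes. MYC read 9.51, 10.20 and 9.92 in MondoA shRNA arrays, against 9.90 and 9.81 in control arrays.

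Other MAP kinase feedback genes (all 20 measured) had 6 differences above 0 and 12 below, with a median of -0.02. The largest was in SPRY2, a Sprouty protein that restrains RAS and RAF activation. SPRY2 read 5.95, 6.29 and 6.37 in MondoA shRNA arrays, against 6.87 and 6.76 in control arrays. All 3 MondoA shRNA values lay at least 0.40 below the lower control value, and the fold of 0.653 was further from 1 than that of any gene of the set. The difference was -0.62 ± 0.16 (SE; limma unadjusted p = 0.0215; adjusted p = 0.833), and from -0.70 to -0.49 with 1 array left out. In 3 of those 5 fits the unadjusted p in limma was above 0.05, at most 0.115 without control array 1. DUSP16, a phosphatase of JNK and p38, chosen after its values were seen, read 4.86, 5.22 and 5.22 in MondoA shRNA arrays, against 5.89 and 5.39 in control arrays. It was lower in all 3, with a difference of -0.54 that did not pass in limma (unadjusted p = 0.0819, adjusted p = 0.833). In the other direction the furthest from 0 was the phosphatase gene DUSP8, chosen the same way, at 0.26, which did not pass either (limma adjusted p = 0.833).

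The kinases and adaptors of the RAS to ERK cascade (20 of 26 measured) had a median difference of 0.00 and no member at an unadjusted p under 0.05 in limma. The largest differences were in SOS1, an exchange factor that loads RAS with GTP, at -0.36, and in the ERK-activated kinase gene RPS6KA5, at 0.23. SOS1 read 4.55, 4.97 and 4.97 in MondoA shRNA arrays, against 5.40 and 4.97 in control arrays, so 3 of the 5 arrays shared a value. The JNK and p38 cascade (8 of 10 measured) had a median of 0.06, and its largest differences were in the JNK2 gene MAPK9, at 0.35, and the p38 activator gene MAP2K6, at 0.30. MAPK9 read 7.35, 8.04 and 7.35 in MondoA shRNA arrays, against 7.34 and 7.12 in control arrays. MondoA shRNA array 2 carried it, and without that array the difference was 0.12.

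Among the factors that act on early gene promoters (7 of 9 measured), ELK3, a ternary complex factor that can repress SRF targets, had the largest difference, where the median was 0.00. ELK3 read 4.68, 4.58 and 4.79 in MondoA shRNA arrays, against 4.22 and 4.21 in control arrays. Its groups were separated by more than either group's spread, with a difference of 0.47 ± 0.07 (SE; limma unadjusted p = 0.00405; adjusted p = 0.793) and a fold of 1.38. SRF itself read 7.01 in each of the 5 arrays. CREB1, which encodes CREB and was chosen after its values were seen, read 8.36, 8.80 and 8.43 in MondoA shRNA arrays, against 8.43 and 8.29 in control arrays. It was highest in MondoA shRNA array 2, the groups overlapped, and the difference was 0.17 (limma adjusted p = 0.833). Its relative CREM, chosen likewise, lay lower in all 3 MondoA shRNA arrays, by -0.03 in the mean, and read 2.79 to 2.85, in the range of the markers of other cells. Of the partners of AP-1 and EGR proteins (all 8 measured), 0 stood at an unadjusted p under 0.05 in limma. BATF3, which pairs with JUN proteins, differed by 0.29 and NAB1, a corepressor of EGR proteins, by -0.17.

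**Figure D4:**
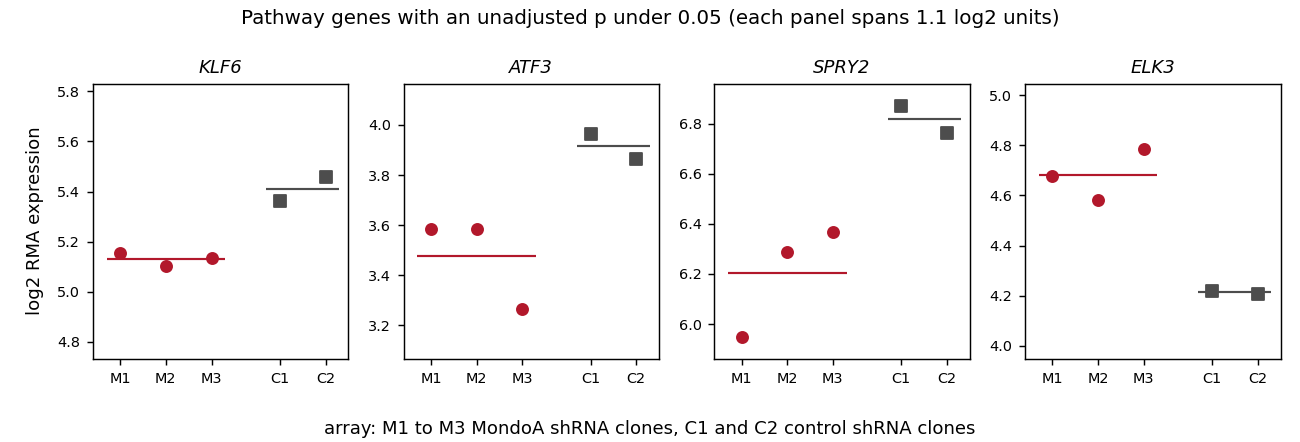
RMA expression (log2 units, vertical axis) of KLF6, ATF3, SPRY2 and ELK3 in MondoA shRNA arrays 1 to 3 (red circles) and control arrays 1 and 2 (grey squares), with lines at the group means and every panel spanning 1.1 log2 units. The groups do not overlap in any of the 4 panels, with MondoA shRNA lower in 3 and higher for ELK3. The 4 genes were chosen for an unadjusted p under 0.05 in limma on these same arrays, which favours groups that stand apart.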

How the data were processed

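Total RNA (200 ng) of 5 clones was labelled with biotin and hybridised to Affymetrix whole-transcript arrays, 1 per clone, per the labels' protocols. The authors summarised probes with RMA in Affymetrix Expression Console 1.1, per the submitters' processing notes. The deposited values are taken as log2, the base RMA gives, though the labels do not state it. They ran from 1.42 to 13.34 for 33297 probe sets. Genome build and detection calls are not given in the sources used here, and the number of arrays limits the precision.

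Of the probe sets, 19460 had exactly 1 symbol in the platform annotation, 1754 had several and 12083 had none. Of the 19460, 19429 matched RefSeq (GRCh38.p14) by Entrez number. The probe set with the highest mean was kept where a gene had several (769 genes), which left 18417 genes. Groups followed the titles. All genes were fitted with limma 3.58.1 in R 4.3.3 (statmod 1.5.0 for array weights), a linear model with empirical Bayes moderation (prior degrees of freedom 0.56, residual 3), tested on both sides, with p-values adjusted by Benjamini and Hochberg's method over the 18417 genes and a threshold of 0.05. The step was tested on simulated data.

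Members, lists and naming rules were chosen with earlier results of these data known. The rule names all members, MLXIP, the members of each further list at an unadjusted p under 0.05 (otherwise the 2 with the largest differences) and the 5 genes most like the member of widest range. Upstream sequences came from a RefSeq table with 35116 windows. Nothing in the labels says how the clones were derived, so p-values measure the spread between these clones. Alternatives left out each array, used the replicate number as a block, normalised or centred again, filtered dim or tied genes, averaged probe sets, and changed the variance model, array weights or threshold.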

Additional observations from a re-analysis of the deposited data

How the results depend on the processing

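No alternative was added after the values were seen. The count of genes of the set past the adjusted threshold was 0 under each alternative that kept both control arrays. FOS and DUSP6, both with 3 equal MondoA shRNA values, passed only without control array 1. That fit has a single control left, and many genes outside the set passed in it as well. The count at an unadjusted p under 0.05, 1 in the main setting, ran from 0 to 4 with 1 array left out (4 without control array 1, a fit that gave such a p to 10.8% of all genes, against 3.73% in the main setting), and was 0 with the replicate block, with genes of 5 different values only, with a robust prior variance and trend, without moderation and with array weights. The median difference of the set, -0.0583, ran from -0.100 to -0.0295 with 1 array left out. It was -0.0919 for genes above the median level (5 of the 9), -0.178 for genes with 5 different values (4 of the 9) and -0.119 with array weights. The count whose groups do not overlap, 4, ran from 4 to 7 with 1 array left out. It was 7 without control array 1, where 32.9% of all genes did not overlap in either direction, against 10% with all arrays. After a further quantile normalisation it was 3 of 9, where 20% of all genes did not overlap. For genes above the median level it was 2 of 5, against 15.6% of all genes that this filter keeps. The count of 4 pathway genes at an unadjusted p under 0.05 ran from 4 to 11 of 90 with 1 array left out, and was 2 of 20 for genes with 5 different values and 8 of 90 with array weights. Over all genes the share rose too, to 10.8% and 9.36% without control arrays 1 and 2, 12.9% for genes with 5 different values and 6.86% with array weights. With a single control left, its spread is assumed to be that of the MondoA shRNA arrays.

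Of 290 values for the 22 named genes under the alternatives, 7 changed sign, all of differences under 0.03 in size. MLXIP ran from -0.065 to 0.027 with 1 array left out and was 0.027 with the replicate block. EGR3 ran from -0.048 to 0.105 with 1 array left out. DUSP1 ran from -0.165 to 0.045 with 1 array left out and was 0.038 with the replicate block. The causes of these changes were not tested. Arrays of the same number did not deviate together: across genes, deviations from the group means correlated at -0.287 for those numbered 1 and -0.233 for those numbered 2. With 2 controls the deviations of one mirror those of the other, so MondoA shRNA array 1 correlated at 0.287 with control array 2. These values are thus not independent, and whether the clones were paired cannot be decided from them. The replicate block took the count over all genes at an unadjusted p under 0.05 in limma to 660, against 687 without it. Detection above background was not assessed, which limits FOS, FOSB, JUN, EGR1 and EGR3 most.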
